A study of Homo sapiens with 12 samples.

Results

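The difference between the responses of 2 human cancer cell lines to the same neighbour, mouse myoblasts, was measured gene by gene. For each gene the log2 signal without myoblasts was subtracted from the log2 signal with myoblasts, once in 786-O and once in PC3, and the PC3 response was then subtracted from the 786-O response. The value that results is called the difference of responses: it is 0 for a gene that moved equally in both lines, above 0 for a gene whose response was higher in 786-O, and below 0 for a gene whose response was lower in 786-O. All 12 arrays of the series entered, since the difference needs all 4 groups, and 12502 genes were tested. Genes were then set apart by whether both lines expressed them, because a line in which a gene stays near the lowest signals the array can report gives no measured response for it.

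Cells in a shared medium act on each other through secreted proteins and metabolites. Cytokines such as interleukin-1 and TNF act through NF-kappaB, a transcription factor held in the cytoplasm until its inhibitor is broken down, and its targets include chemokines that draw neutrophils. Interferons act through STAT and IRF factors on antiviral genes, and low oxygen acts through the hypoxia-inducible factors HIF-1 and HIF-2, whose alpha subunits are marked for breakdown by the VHL protein when oxygen is present.

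786-O cells come from a renal carcinoma and have no functional VHL, and PC3 is a prostate carcinoma line that grows without androgen. The groups were 786-O alone, 786-O with myoblasts, PC3 alone and PC3 with myoblasts, with 3 arrays each. The myoblasts were primary cells from limbs of 5-day-old C57BL/6-Tg GFP mice, cultured before use in medium with serum and basic fibroblast growth factor, and they were placed in the top chamber of transwell dishes, sharing medium but no contact with the cancer cells. The protocol gives 30000 cancer cells seeded 6 h ahead of 10000 myoblasts and RNA extraction 12 h later, while other labels call the co-culture 1:1. The lines were kept in different base media (RPMI1640 for 786-O, F-12K for PC3), so a difference between the lines and a difference between their media cannot be told apart, and each cancer type stands on a single line. The labels call the 3 samples of a group repeats and do not say that they were separate cultures, so a p-value here reflects no more than the spread between these samples, which may be technical.

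The arrays were human HG-U133 Plus 2 arrays, and the median signal per array ran from 5.462 to 5.733, with 42.22% to 42.87% of probe sets at or above a signal of 16. Replicate 2 of 786-O with myoblasts stood apart: the ratio of 3' to 5' signal, a measure of RNA or label length, reached 7.22 for ACTB, where all remaining arrays gave 3.08 to 4.24, and 1.84 for GAPDH, where they gave 1.07 to 1.29. The median gene had an SD of 0.1617 on the log2 scale within that group, against 0.0639 in 786-O alone, 0.0818 in PC3 with myoblasts and 0.0947 in PC3 alone. Without that array 1314 genes were called instead of 746, and 737 of the 746 were called again in the same direction; of the 113 called genes that the naming rule picked, 111 were called again. The kidney factors PAX8 (log2 9.57 in 786-O alone) and PAX2 (5.42) and the cadherin CDH6 (8.93) were expressed in 786-O, while LHX1 and the hypoxia target CA9 lay under the floor there. HOXB13, a prostate homeobox factor, was at 8.22 in PC3 alone and EPCAM at 11.96, whereas KLK3, KLK2, TMPRSS2 and CDH1 lay under the floor in PC3. Of 16 muscle genes on the array 14 lay under the floor in each 786-O group and 15 in each PC3 group, and MYOD1, MYF5, MYOG, PAX7 and DES had group means of 2.05 to 2.71 throughout. The exceptions were PAX3 in 786-O (7.05 alone and 7.78 with myoblasts) and TNNT1 in both lines, and the summed signal of the list ran from 224.2 to 406.8 in 786-O alone and from 425.2 to 520.3 with myoblasts, against 3626.5 to 5293.1 and 4058.2 to 4985.2 in PC3. The labels do not say whether RNA was taken from the lower chamber alone, and the part of mouse RNA in the signals was not tested beyond these markers.

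The responses of the lines differed for 746 of the 12502 genes, or 5.97%, at an adjusted p under 0.05 (limma, Benjamini-Hochberg over all genes tested). The response was higher in 786-O for 425 genes (3.4%) and lower for 321 (2.57%), and the median difference over all genes was 0.02. With the arrays centred on their medians the split turned, with 355 higher and 413 lower. A gene counted as expressed in a line where the mean log2 signal of at least 1 of the line's groups reached 4, a signal of 16. By that rule 10506 genes were measured throughout, with all 4 group means at or above the floor, and 581 of them (5.53%) were called, 359 higher and 222 lower. Their differences ranged in size from 0.15 to 3.12 on the log2 scale with a median of 0.61, and 110 were at least 2-fold. For the typical gene of this class the standard error was 0.141 and the 95% interval, not adjusted for the number of tests, reached 0.31 to each side. A call after adjustment needed more, so that differences of that size and smaller were mostly not detectable with 3 arrays per group. Across these 10506 genes the responses of the lines, which share no arrays, had a Pearson r of 0.173 and a Spearman rho of 0.113, given as a description over genes, which are not independent.

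**Figure D1:**
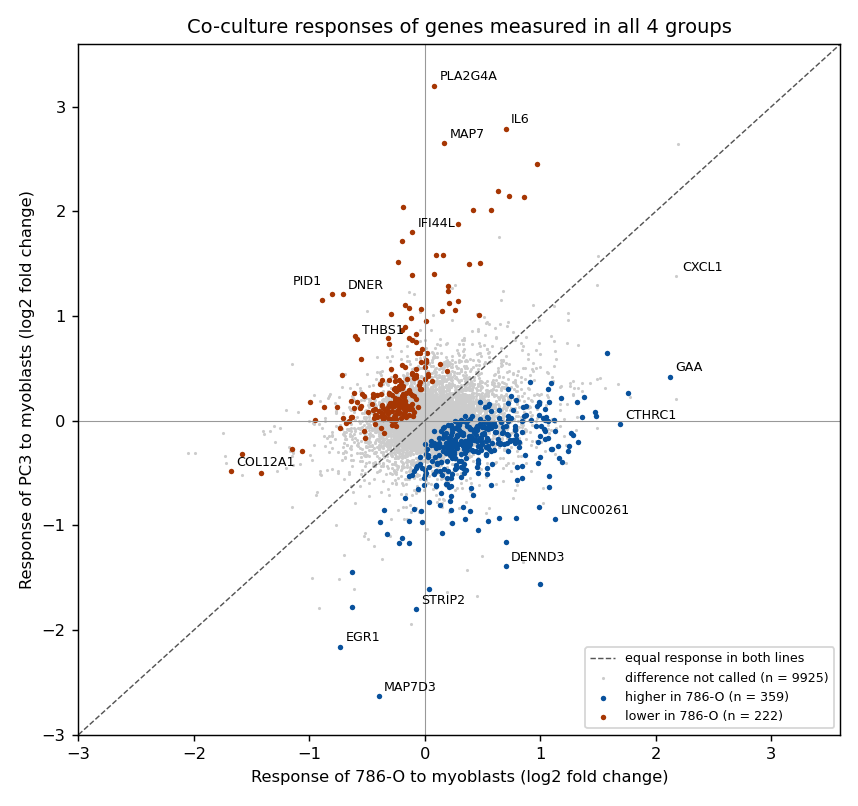
Response to myoblasts in PC3 (vertical axis, log2 fold change) against the response in 786-O (horizontal axis, log2 fold change) for the 10506 genes measured in all 4 groups. Each point is 1 gene, the dashed line marks equal responses, blue points are the 359 genes with a higher response in 786-O, red points the 222 with a lower one, and grey points were not called. PLA2G4A and IL6 lie high above the line and MAP7D3 far below it, while CXCL1 and most other grey points lie near the line or near 0.

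Which line moved was read from each line's own response in the same fit, where 1498 genes (12.0%) were called in 786-O, 8.08% of all genes rising and 3.9% falling, and 713 (5.7%) in PC3, 3.19% rising and 2.51% falling. Of the 746 genes, 256 rose in 786-O and were not called in PC3, 116 fell in 786-O only by the same reading, 153 rose in PC3 and 109 fell in PC3 without a call in 786-O. A further 27 genes were called in both lines in opposite directions, 16 were called in both in the same direction with unequal size, and 69 were called in neither, so that only their difference passed. The size of the difference was largest where PC3 rose, with a median of 1.31, against 0.74 where 786-O rose, 0.75 where PC3 fell and 0.46 where 786-O fell. Among genes measured throughout these medians were 0.71, 0.69, 0.6 and 0.43 in the same order. Not being called in a line does not show that the gene was unchanged there. Each gene had a single spread shared by the groups, and with a spread for each line only 175 genes were called in the 786-O response, while 813 were called for the difference and 699 of the 746 again.

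**Figure D2:**
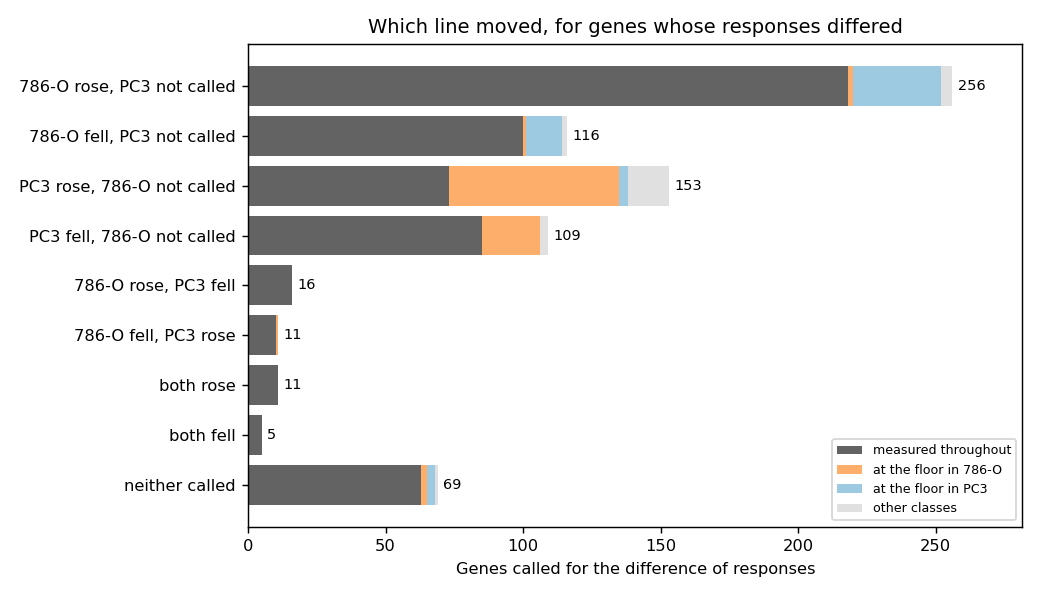
Number of the 746 genes with differing responses (horizontal axis) by which line's own response was called and in which direction (vertical axis). Dark bars are genes measured in all 4 groups, orange and blue parts are genes at the floor in 786-O or in PC3, and pale parts the remaining classes; genes that rose in PC3 only hold the largest share at the floor in 786-O.

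Inflammatory cytokines and chemokines were prominent among the genes with a lower response in 786-O. Of 27 tested targets of NF-kappaB, 11 had a lower response in 786-O and 0 a higher one, so that 40.7% were called against 5.97% of all genes. The median difference was -0.3, and -0.15 over the 18 members measured throughout, against 0.02 over all genes, with 5 members at the floor in 786-O. Called members at the floor there, among them CSF3, IL1A, CCL20 and CXCL6, have no measured 786-O response. Their calls rest on the PC3 rise alone, and of all genes at the floor in 786-O 14.0% were called. In PC3 16 of the 27 rose and in 786-O 9 rose, and 0 fell in either line. The 7 ELR-type CXC chemokines, the neutrophil attractants bound by CXCR2, had 4 members with a lower response in 786-O and 0 with a higher one. Their median difference was -1.42 over all 7 and -0.76 over the 4 measured throughout. The promoters of 4 members with different responses are shown so that their NF-kappaB sites can be compared. The windows run from 250 bases before to 50 after the start of the RefSeq transcript (GRCh38.p14), in the direction of the gene, and capitals mark each match to the NF-kappaB consensus on either strand.
CCL20 (chr2:227813592-227813891, + strand): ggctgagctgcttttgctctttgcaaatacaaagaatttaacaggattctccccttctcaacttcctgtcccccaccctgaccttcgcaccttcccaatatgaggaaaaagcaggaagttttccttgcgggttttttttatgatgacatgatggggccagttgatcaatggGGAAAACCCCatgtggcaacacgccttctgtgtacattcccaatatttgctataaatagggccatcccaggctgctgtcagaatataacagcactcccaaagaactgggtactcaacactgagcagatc
IL6 (chr7:22726950-22727249, + strand): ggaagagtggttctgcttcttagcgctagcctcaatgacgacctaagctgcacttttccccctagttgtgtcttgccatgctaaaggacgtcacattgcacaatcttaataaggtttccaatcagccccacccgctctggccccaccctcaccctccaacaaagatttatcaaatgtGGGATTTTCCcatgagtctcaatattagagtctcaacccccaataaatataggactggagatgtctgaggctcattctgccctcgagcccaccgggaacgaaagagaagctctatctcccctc
CXCL3 (chr4:74038640-74038939, - strand): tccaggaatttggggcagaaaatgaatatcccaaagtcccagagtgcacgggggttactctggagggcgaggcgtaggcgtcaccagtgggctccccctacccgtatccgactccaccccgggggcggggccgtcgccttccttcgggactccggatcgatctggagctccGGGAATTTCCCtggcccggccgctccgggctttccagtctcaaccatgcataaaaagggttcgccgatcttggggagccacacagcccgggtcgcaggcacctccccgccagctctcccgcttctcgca
CXCL1 (chr4:73869143-73869442, + strand): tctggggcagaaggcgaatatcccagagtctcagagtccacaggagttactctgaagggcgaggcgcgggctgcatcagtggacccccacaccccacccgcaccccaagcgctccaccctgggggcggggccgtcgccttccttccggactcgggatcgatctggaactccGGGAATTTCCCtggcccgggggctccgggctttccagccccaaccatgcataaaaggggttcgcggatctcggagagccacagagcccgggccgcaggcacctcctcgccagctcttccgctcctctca
The same 11 capital letters stand in CXCL3 and CXCL1, where 2 overlapping matches, 1 on each strand, share them. Of 27305 promoter windows 5.72% held the consensus, of those of the genes tested here 6.48%, of the 21 list members with a window 13, and of the 9 members among these that were called 5. A match describes the letters in the window and not binding in these cells.

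IL6, the ligand of the gp130 receptor and a driver of acute-phase responses, was at 10.34, 10.51 and 10.56 (log2 signal) in PC3 alone and at 13.24, 13.4 and 13.14 with myoblasts. In 786-O it was at 8.41, 8.71 and 8.77 alone and at 9.73, 8.56 and 9.69 with myoblasts. The PC3 groups lay far apart, whereas in 786-O replicate 2 with myoblasts fell within the range of the arrays without them. The difference was -2.1 ± 0.35 (SE, n = 3 per group, adjusted p = 0.00565), made up of a response of 2.79 ± 0.25 in PC3 and 0.7 ± 0.25 in 786-O, of which only the first was called (adjusted p = 3.16e-05 and 0.0855). Without replicate 2 of 786-O with myoblasts the IL6 difference was -1.71 (adjusted p = 9.84e-05).

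The CXC chemokines did not behave alike. CXCL3 was at 11.6, 11.58 and 11.66 in PC3 alone and at 14.08, 14.04 and 14.06 with myoblasts, and at 5.91, 6.28 and 5.96 in 786-O alone and 6.85, 7.63 and 6.6 with myoblasts. It rose in both lines without overlap, by 2.45 ± 0.21 in PC3 and 0.97 ± 0.21 in 786-O, and the difference of -1.47 ± 0.29 passed the test (adjusted p = 0.0139). CXCL2 rose likewise by 2.15 ± 0.17 in PC3 and 0.73 ± 0.17 in 786-O, with a difference of -1.42 ± 0.24 (adjusted p = 0.00586). CXCL1 was not called: it was at 4.96, 4.68 and 4.19 in 786-O alone and at 6.75, 6.88 and 6.75 with myoblasts, and at 13.07, 12.92 and 12.87 in PC3 alone and 14.42, 14.25 and 14.35 with myoblasts. It rose by 2.18 ± 0.16 in 786-O and 1.38 ± 0.16 in PC3, and the CXCL1 difference of 0.8 ± 0.22 missed the threshold (adjusted p = 0.0566, 95% interval 0.31 to 1.28). The 786-O arrays of CXCL1 without myoblasts lay near the floor, and with a constant of 16 added the difference was 0.26 (adjusted p = 0.349). CXCL8, looked up after its values were seen, rose by 0.56 ± 0.11 and 0.66 ± 0.11 from very different levels, with a difference of -0.1 and an interval of -0.44 to 0.25. CXCL6 and PPBP were at the floor in 786-O (2.29 to 2.35 and 2.18 to 2.23), so that only their PC3 rises of 1.51 ± 0.13 and 2.62 ± 0.22 were measured. CXCL chemokine genes lie close together and resemble one another in sequence, so some cross-hybridisation between their probe sets is possible and was not tested.

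Other genes of this kind were off or near the floor in 786-O. CCL20, the chemokine bound by CCR6, was at 4.74, 6.1 and 6.73 in PC3 alone and at 10.22, 10.47 and 10.04 with myoblasts, while all 6 arrays of 786-O lay between 2.14 and 2.48. CSF3, granulocyte colony-stimulating factor, was at 2.16 to 2.18 on every array of 786-O and of PC3 alone, and at 7.96, 7.48 and 7.96 in PC3 with myoblasts. CSF3 was thus at least 13.9-fold higher with myoblasts in PC3 (adjusted p = 3.39e-09) and not measured in 786-O. IL1A, the alpha form of interleukin-1, was under the floor on all arrays but those of PC3 with myoblasts (6.65, 5.68 and 5.96), where it was at least 4.27-fold higher (adjusted p = 2.19e-05). CSF2, the macrophage and granulocyte growth factor GM-CSF, rose in PC3 from 6.95, 7.15 and 7.17 to 9.57, 9.8 and 9.6, and in 786-O went from 4.05, 3.55 and 2.93 to 4.08, 4.56 and 4.21, near the floor and not called there (adjusted p = 0.0584).

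Of 14 tested gp130-type and colony-stimulating cytokines 5 had a lower response in 786-O and 0 a higher one. The share called was 35.7%, against 5.97% of all genes. The median difference was -0.4, and -0.26 over the 11 measured throughout. Among them IL11, a gp130 ligand, moved in opposite directions, falling in 786-O from 8.76, 8.58 and 8.72 to 8.15, 8.24 and 8.03 and rising in PC3 from 5.63, 5.62 and 5.61 to 6.27, 6.2 and 6.16. The IL11 groups did not overlap within either line. Of 8 tested genes of the interleukin-1 family 4 were lower and 1 was higher (62.5% called). Of all genes 5.97% were called, and of those at the floor in 786-O 14.0%. The median of -0.56 includes 5 members at the floor in 786-O, and over the 3 measured throughout it was -0.16. IL1A, IL33 and IL1B, among the lower members, were at the floor in 786-O, so their differences rest on the PC3 responses alone. IL33 and IL1B rose in PC3 by 1.03 ± 0.13 and 0.69 ± 0.09. IL1B lost its call for the difference without replicate 1 of PC3 with myoblasts. The member with a higher response in 786-O was the receptor IL1R1, at 6.37, 6.54 and 6.45 alone and at 7.6, 7.08 and 7.61 with myoblasts, while in PC3 it was near the floor at 4.46, 4.2 and 4.57 alone and at 3.78, 4.12 and 4.14 with myoblasts. IL1R1 rose in 786-O by 0.98 ± 0.18, and its difference was 1.38 ± 0.26 (adjusted p = 0.0104).

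Among interferon-stimulated genes, those called for the difference rose in PC3. Of 28 tested members 5 had a lower response in 786-O and 0 a higher one (17.9% called against 5.97% of all genes), with a median difference of -0.23. In all, 8 members rose in PC3 and 3 in 786-O. IFI44L, an antiviral gene, was at 5.87, 6.18 and 5.8 in PC3 alone and at 7.74, 7.91 and 7.6 with myoblasts, and stayed at 6.18, 6.7 and 6.59 and at 6.4, 6.4 and 6.32 in 786-O, where the groups overlapped. Its difference was -1.91 ± 0.23 (adjusted p = 0.000788). IFIT1, which binds foreign RNA ends, rose in PC3 by 1.08 ± 0.11 and had a 786-O response of -0.14 ± 0.11 that was not called. OAS1, a sensor of double-stranded RNA, was off in 786-O (2.18 to 2.72) and reached 7.11, 7.41 and 7.51 in PC3 with myoblasts from 3.49, 3.2 and 4.15 alone, at least 9.82-fold higher (adjusted p = 3.13e-06). IFI44 rose in PC3 by 0.83 ± 0.08, and its difference of -0.91 ± 0.11 lost its call when probe sets were averaged or those with s and x suffixes were left out. The IFI44L window is shown for its repeated match, in capitals, to the interferon-stimulated response element GAAANNGAAA, searched on both strands.
IFI44L (chr1:78620198-78620497, + strand, GRCh38.p14): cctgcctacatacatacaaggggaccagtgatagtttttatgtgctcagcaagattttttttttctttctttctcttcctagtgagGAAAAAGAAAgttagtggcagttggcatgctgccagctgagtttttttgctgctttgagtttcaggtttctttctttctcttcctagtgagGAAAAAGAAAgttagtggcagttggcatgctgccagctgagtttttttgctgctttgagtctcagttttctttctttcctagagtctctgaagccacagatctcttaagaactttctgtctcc
The element stood in 3.65% of all windows, in 14 of 22 list members with a window and in 3 of the 4 called members among them.

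Of 17 tested antigen presentation genes of MHC class I, another interferon target, 1 had a higher response in 786-O and 0 a lower one. The share called was 5.88%, near the 5.97% of all genes, and the median difference was -0.0. At an unadjusted p under 0.05, 4 were higher and 1 was lower, against 2932 of all 12502 genes in either direction. By their own responses 6 members rose in 786-O against 1 in PC3. Of all genes 8.08% rose in 786-O and 3.19% in PC3. The list was not tested against the interferon list. The called member was NLRC5, the activator of MHC class I transcription, which was off in PC3 (2.09 to 2.1) and in 786-O went from 3.58, 4.37 and 4.98 alone to 6.94, 7.04 and 6.56 with myoblasts. Only the 786-O response of NLRC5, 2.54 ± 0.28 (adjusted p = 0.000393), was therefore measured, and the PC3 arrays lay at the lowest signals.

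Among the genes measured throughout, the 12 with the lowest difference were PLA2G4A, MAP7, MOB3B, IL6, TENT5C, PID1, DNER, IFI44L, ZEB2, HS6ST2, KYNU and SCARA5. PLA2G4A, the cytosolic phospholipase A2 that frees arachidonic acid for prostaglandin synthesis, was at 5.13, 4.47 and 3.29 in PC3 alone and at 7.46, 7.81 and 7.22 with myoblasts, and at 8.42, 7.86 and 7.98 in 786-O alone and 8.39, 7.91 and 8.19 with myoblasts. The PC3 groups were apart and the 786-O groups overlapped, and the difference was -3.12 ± 0.52 (adjusted p = 0.00565). KYNU, kynureninase of the tryptophan breakdown pathway, went in PC3 from 6.7, 7.35 and 7.7 to 8.81, 9.48 and 9.1 and in 786-O from 8.15, 8.03 and 8.01 to 8.32, 8.15 and 8.58, a difference of -1.59 ± 0.34 (adjusted p = 0.0188). SCARA5, a scavenger receptor for ferritin, rose in PC3 from 4.72, 4.54 and 4.68 to 6.55, 6.43 and 6.97, with a difference of -1.58 ± 0.24 (adjusted p = 0.00299).

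HS6ST2, ZEB2 and MAP7 had higher signals in 786-O than in PC3 and rose in PC3. HS6ST2, a heparan sulfate sulfotransferase, was at 6.44, 6.25 and 7.1 in PC3 alone and at 8.21, 7.95 and 8.2 with myoblasts, below the 11.47 to 12.09 of the 786-O arrays. ZEB2, a repressor of E-cadherin, went in PC3 from 7.24, 6.24 and 5.61 to 7.85, 8.11 and 8.29, while 786-O lay between 11.07 and 11.53. MOB3B, of the family of MOB kinase activators, rose in PC3 from 4.55, 4.43 and 4.43 to 6.39, 6.4 and 6.75. MAP7, a microtubule-binding protein, rose in PC3 from 7.89, 6.8 and 6.13 to 9.72, 9.44 and 9.63, but its other probe sets, at mean signals of 2.74 and 2.86, gave differences of 0.57 and 0.63, and the MAP7 call was lost with the mean of probe sets. TENT5C, a poly(A) polymerase, had responses of -0.89 ± 0.33 in 786-O and 1.15 ± 0.33 in PC3, neither called, and a difference of -2.04 ± 0.47 (adjusted p = 0.0272). The TENT5C call was lost under 8 alternatives and that of ZEB2 under 9, each including the omission of replicate 3 of 786-O alone and of replicate 3 of PC3 with myoblasts.

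On the other side, the 12 genes measured throughout with the highest difference were LINC00937, MAP7D3, DENND3, LINC00261, BMS1P2, PRKG1, CTHRC1, STRIP2, AK5, LOC727820, GAA and FAT4. In 4 of them, MAP7D3, STRIP2, FAT4 and BMS1P2, PC3 fell and 786-O was not called. MAP7D3, a microtubule-binding protein, was at 9.58, 9.58 and 9.63 in PC3 alone and at 7.16, 7.11 and 6.61 with myoblasts, against 10.76, 10.78 and 10.79 and then 10.37, 10.22 and 10.53 in 786-O, a difference of 2.23 ± 0.19 (adjusted p = 9.83e-05). Its other probe sets gave 1.41 and 4.02, with 786-O responses of -1.85 and -0.18 and PC3 responses of -3.26 and -4.19. The 786-O groups of MAP7D3 did not overlap, so a smaller fall there is not excluded by the missing call. STRIP2, a subunit of the STRIPAK phosphatase complex, fell in PC3 from 9.63, 8.92 and 8.94 to 7.13, 7.78 and 7.19, and a dimmer probe set gave a STRIP2 difference of 0.38 against 1.72. FAT4, an atypical cadherin of the Hippo pathway, fell in PC3 from 6.32, 6.2 and 5.57 to 4.48, 4.33 and 4.44, while 786-O stayed between 4.53 and 4.81.

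In others 786-O rose. CTHRC1, a secreted protein of matrix and injured arteries, was at 7.49, 6.86 and 7.1 in 786-O alone and at 8.75, 8.68 and 9.08 with myoblasts, and stayed at 11.85, 12.07 and 12.13 and at 11.95, 11.98 and 12.02 in PC3. The 786-O groups of CTHRC1 were apart, the PC3 groups overlapped, and the difference was 1.72 ± 0.22 (adjusted p = 0.000957). GAA, the lysosomal alpha-glucosidase that breaks down glycogen, rose in 786-O from 4.67, 5.3 and 4.38 to 7.02, 7.37 and 6.3, and its difference of 1.7 ± 0.39 was lost under 8 alternatives, 7 of them the omission of a single array, among them replicates 1 and 3 of 786-O alone. PRKG1, the cGMP-dependent protein kinase, rose in 786-O by 0.99 ± 0.22 and had a PC3 response of -0.82 ± 0.22 that missed the threshold (adjusted p = 0.0534). The non-coding LINC00937, the pseudogene BMS1P2 and LOC727820 lost their calls under 14, 7 and 15 alternatives, with differences of 2.56, 1.86 and 1.71. The dimmer probe set of LOC727820, under the floor at a mean of 3.35, gave 0.13, which was also its value without s and x probe sets (adjusted p = 0.914), and BMS1P2 shares sequence with other copies of its parent gene.

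**Figure D3:**
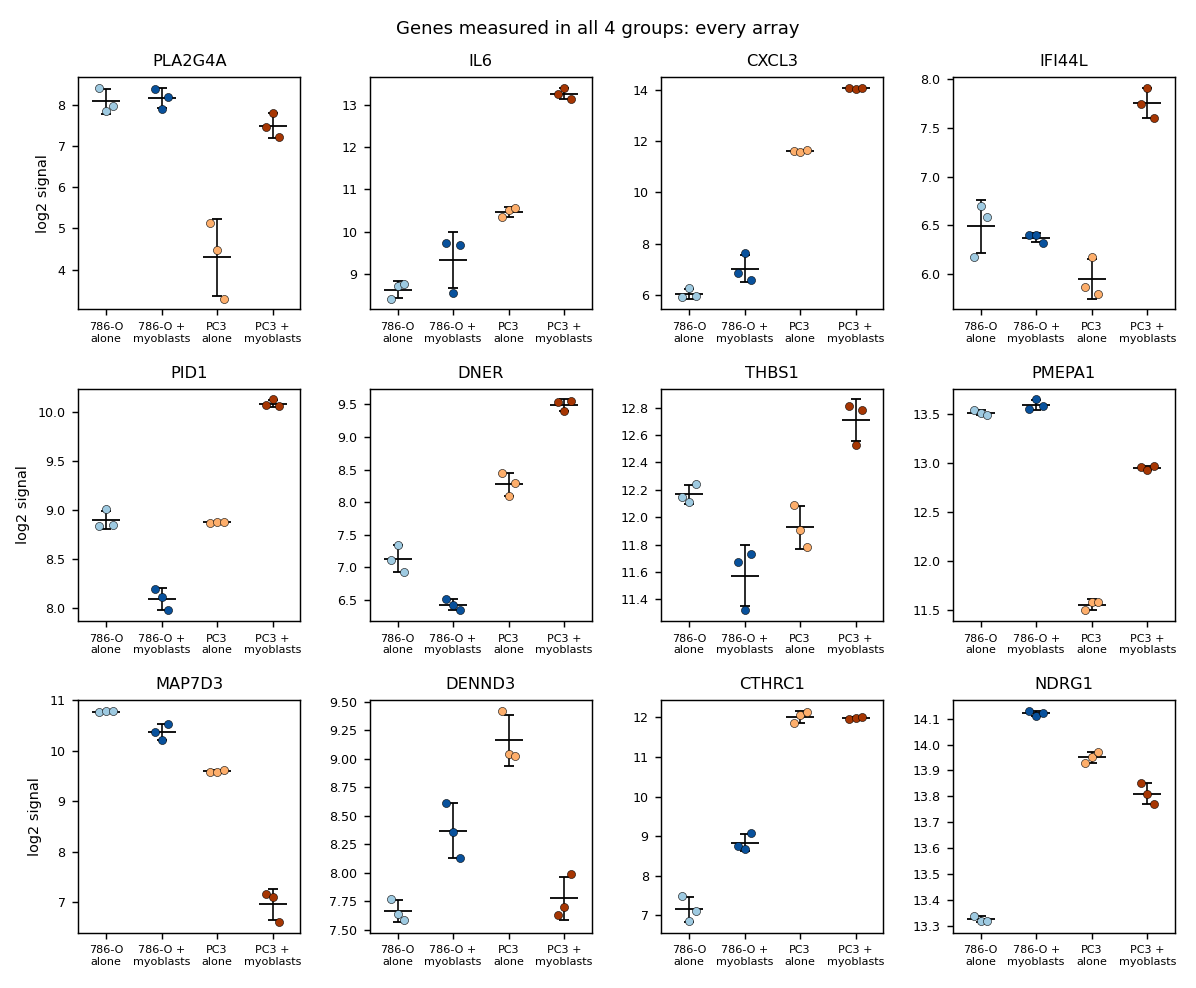
Log2 signal (vertical axis) on every array of 12 genes measured in all 4 groups, by group (horizontal axis). Points are arrays, bars the mean and SD of the 3 arrays of a group. IL6, CXCL3, IFI44L and PMEPA1 separate the PC3 groups far more than the 786-O groups, PID1, DNER and THBS1 move down in 786-O and up in PC3, DENND3 and NDRG1 move up in 786-O and down in PC3, and CTHRC1 separates only the 786-O groups.

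In 27 genes both lines were called and the directions were opposite, 11 falling in 786-O and rising in PC3 and 16 the reverse. The 8 with the largest difference were CSGALNACT1, DENND3, LINC00261, PID1, DNER, AK5, LOC283278 and THBS1. PID1, an adaptor that binds the LDL receptor-related protein LRP1, was at 8.84, 9.01 and 8.85 in 786-O alone and at 8.2, 8.12 and 7.98 with myoblasts. In PC3 it started at the same level, 8.87, 8.88 and 8.88, and reached 10.07, 10.13 and 10.06. The PID1 groups did not overlap in either line, and the difference was -2.01 ± 0.13 (adjusted p = 1.25e-05). DNER, a transmembrane Notch ligand with EGF repeats, fell in 786-O from 7.12, 7.35 and 6.93 to 6.51, 6.43 and 6.34 and rose in PC3 from 8.44, 8.09 and 8.3 to 9.53, 9.39 and 9.55. DNER gave -1.92 ± 0.19 (adjusted p = 0.0003).

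THBS1, thrombospondin-1, a matrix protein that holds back vessel growth and activates latent TGF-beta, fell in 786-O from 12.15, 12.11 and 12.24 to 11.67, 11.32 and 11.73 and rose in PC3 from 12.09, 11.91 and 11.78 to 12.81, 12.53 and 12.78. All 7 probe sets of THBS1 had differences below 0, from -3.11 to -0.15, but they did not all show the fall in 786-O. Those with means of 8.56 and 9.64 fell in 786-O (-0.83 and -0.77) and rose in PC3 (1.18 and 0.18). A probe set with a mean of 8.49 rose in both lines, by 0.39 in 786-O and 0.66 in PC3. The dimmer ones lay under the floor in 786-O. CSGALNACT1, which starts chondroitin sulfate chains, rose in PC3 from 7.09, 7.28 and 7.15 to 9.75, 9.6 and 9.47, and its fall in 786-O lay at the floor (4.12, 3.54 and 3.64 to 3.16, 2.79 and 3.28), so its opposite sign rests on signals that cannot be ordered. LOC283278 had a difference of -1.41 ± 0.24.

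DENND3, a factor that activates the vesicle GTPase Rab12, rose in 786-O from 7.77, 7.64 and 7.58 to 8.61, 8.36 and 8.13 and fell in PC3 from 9.42, 9.04 and 9.02 to 7.63, 7.7 and 7.99. The DENND3 groups were apart in both lines and the difference was 2.09 ± 0.23 (adjusted p = 0.000384). LINC00261, a long non-coding RNA, rose in 786-O from 4.41, 4.16 and 3.61 to 5.16, 5.21 and 5.19, close to the floor, and fell in PC3 from 10.41, 10.47 and 10.61 to 9.65, 9.52 and 9.49. AK5, an adenylate kinase, rose by 0.79 ± 0.19 in 786-O and fell by 0.93 on the log2 scale in PC3. The number of genes with opposite calls ranged from 11 to 75 when single arrays were left out, highest without replicate 2 of 786-O with myoblasts and lowest without replicate 1 of PC3 with myoblasts, and was 3 with a spread for each line and 91 with the ACTB ratio as a covariate.

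Among targets of the hypoxia-inducible factors, every member called for the difference had a higher response in 786-O. Of 29 tested members 9 were higher and 0 lower (31.0% called against 5.97% of all genes), with a median difference of 0.37, and 14 rose in 786-O against 4 in PC3, where 2 fell. NDRG1, a stress-response gene, was at 13.34, 13.32 and 13.32 in 786-O alone and at 14.13, 14.11 and 14.12 with myoblasts, and at 13.93, 13.95 and 13.97 in PC3 alone and 13.85, 13.81 and 13.77 with myoblasts. The NDRG1 rise in 786-O was 0.79 ± 0.03 and the fall in PC3 was -0.14 ± 0.03, small but outside the range of the arrays alone. ADM, the vasodilator peptide adrenomedullin, rose in 786-O from 11.67, 11.75 and 11.61 to 12.18, 12.41 and 12.04 and fell in PC3 from 11.77, 11.96 and 11.86 to 11.57, 11.52 and 11.51. ZNF395, a zinc finger factor, rose by 0.69 ± 0.06 in 786-O, with a PC3 response of -0.22 ± 0.06 (adjusted p = 0.0504).

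DDIT4, which holds back the kinase mTOR, rose in both lines, by 0.91 ± 0.06 and 0.37 ± 0.06, with a difference of 0.54 ± 0.08 (adjusted p = 0.00333). Of 16 glycolytic enzymes, which are largely HIF-1 targets, 1 was called (6.25% against 5.97% of all genes), and the median difference was 0.07. It was ENO2, the neuronal enolase, with 0.55 ± 0.08 (adjusted p = 0.00294). CA9, a widely used marker of HIF-1, was under the floor in 786-O and at 9.99 and 10.0 in PC3 without and with myoblasts. The core hypoxia response element, ACGTG or GCGTG on either strand, stood in 48.4% of all promoter windows and 63.4% of those of the genes tested, in 20 of 24 list members with a window and in 6 of the 6 called among them; letters this common say little of any gene.

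Genes of the amino acid response, which the factor ATF4 switches on when amino acids run short, had 7 of 30 tested members with a higher response in 786-O and 0 with a lower one (23.3% called against 5.97% of all genes). In 786-O 14 rose and 1 fell, and in PC3 3 rose. The median difference was 0.11. AARS1, the alanyl-tRNA synthetase, rose in 786-O from 11.67, 11.56 and 11.6 to 12.1, 12.42 and 12.03, and in PC3 it was at 12.14, 12.28 and 12.32 alone and at 12.2, 12.17 and 12.16 with myoblasts, where the groups overlapped. ASNS, asparagine synthetase, rose in 786-O by 0.24 ± 0.05, and the ASNS difference was 0.35 ± 0.07 (adjusted p = 0.0142). SLC7A11, the cystine and glutamate exchanger, had 0.57 ± 0.1, while its other probe sets gave -0.48 and -0.0 and its call was lost with their mean. GARS1, glycyl-tRNA synthetase, had 0.33 ± 0.08 (adjusted p = 0.0299) and lost its call under 11 alternatives. Chaperones and other genes of the unfolded protein response, a neighbouring stress pathway, had 0 of 18 members called by limma in either direction, with a median of -0.18. At an unadjusted p under 0.05, 1 of them was higher and 6 were lower, against 2932 of all 12502 genes in either direction.

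Genes that growth factor signalling through ERK switches on moved in different directions. EGR1, an immediate early transcription factor, fell in both lines and more in PC3: it was at 14.35, 14.5 and 14.47 in 786-O alone and at 13.68, 13.75 and 13.7 with myoblasts, and at 8.37, 8.36 and 8.65 in PC3 alone and 6.0, 6.34 and 6.55 with myoblasts. The difference was 1.43 ± 0.18 (adjusted p = 0.000889), a second well-expressed probe set gave 0.82, and a dim one, with a mean of 2.8, gave -2.65, which turned the sign of the EGR1 value averaged over probe sets. Its relative EGR3 fell in 786-O from 9.0, 9.04 and 8.61 to 5.69, 5.38 and 5.68 and was off in PC3 (2.33 to 2.47), so its difference of -3.36 ± 0.22 measures the 786-O response. KLF6 rose in 786-O by 0.12 ± 0.03 and fell in PC3 with -0.22 ± 0.03. Of 22 tested immediate early genes 2 were higher and 1 lower in 786-O (13.6% called against 5.97% of all genes). The EGR1 window is shown for its CArG boxes, in capitals, the element bound by serum response factor, which stood in 1.29% of all windows, both strands searched.
EGR1 (chr5:138465229-138465528, + strand, GRCh38.p14): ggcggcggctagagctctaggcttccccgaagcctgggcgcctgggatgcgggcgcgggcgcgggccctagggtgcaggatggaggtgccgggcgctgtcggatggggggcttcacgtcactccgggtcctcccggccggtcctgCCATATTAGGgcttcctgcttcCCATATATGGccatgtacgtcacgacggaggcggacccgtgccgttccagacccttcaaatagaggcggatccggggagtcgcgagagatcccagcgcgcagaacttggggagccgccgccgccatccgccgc

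Of 16 genes of ERK feedback 1 was higher and 3 were lower (25.0% called against 5.97% of all genes). EPHA2, an ephrin receptor, fell in 786-O from 12.66, 12.66 and 12.67 to 12.34, 12.43 and 12.46 and stayed at 13.54 to 13.64 in PC3. SPRY4, an inhibitor of receptor tyrosine kinase signalling, fell in 786-O from 8.41, 8.26 and 8.35 to 7.22, 6.54 and 7.0 and had a PC3 response of -0.5 ± 0.16 (adjusted p = 0.0941), and its difference of -0.92 ± 0.22 was lost when any array but those of 786-O with myoblasts was left out. PHLDA1 gave 0.39 ± 0.09 with its brightest probe set and between -0.33 and 0.31 with the others. HBEGF, a ligand of the EGF receptor, fell in 786-O from 11.49, 11.44 and 11.4 to 10.63, 10.82 and 10.59 and was not called in PC3, and a second well-expressed probe set gave the same difference of -0.9. It was the 1 of 12 tested EGF family ligands and receptors that was called (8.33%).

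The TGF-beta list, 20 genes tested, had 5 members with a higher and 3 with a lower response in 786-O. With 40.0% called, against 5.97% of all genes, its median difference was -0.14. PMEPA1, an inhibitor of SMAD signalling that TGF-beta induces, rose in PC3 from 11.5, 11.59 and 11.59 to 12.96, 12.93 and 12.97, while 786-O lay at 13.49 to 13.54 alone and 13.55 to 13.65 with myoblasts. Its difference was -1.31 ± 0.06 (adjusted p = 3.8e-07), the same in direction for its 3 probe sets. TGFB2, a TGF-beta ligand, fell in 786-O from 10.83, 10.51 and 10.7 to 10.0, 9.8 and 10.09 and rose in PC3 from 11.49, 11.19 and 11.32 to 11.78, 11.75 and 11.79, and its 4 probe sets gave -1.38 to -1.15. SMAD3, which carries the signal to the nucleus, rose in 786-O by 0.35 ± 0.03. In PC3 7 members of the list rose and 3 fell.

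The genes of YAP and TEAD, which respond to cell density and stretch, had 4 higher and 2 lower of 19 (median 0.21). This was 31.6% called, against 5.97% of all genes, and 8 fell in PC3 against 3 in 786-O. F3, tissue factor, the start of blood clotting, rose in PC3 from 9.24, 9.31 and 9.45 to 9.83, 9.95 and 9.81. NT5E, the enzyme CD73 that makes adenosine, fell in PC3 from 12.08, 12.19 and 12.25 to 11.78, 11.61 and 11.67, and all 4 NT5E probe sets had differences above 0. FJX1 fell in PC3 by 0.53 on the log2 scale. Among 24 matrix genes 3 were higher and 3 lower (25.0% called). FN1, fibronectin, rose in 786-O from 12.55, 12.53 and 12.49 to 13.21, 13.68 and 13.02, with a difference of 0.99 ± 0.18 (adjusted p = 0.00906) that was lost without s and x probe sets. LOX, which crosslinks collagen, rose in 786-O from 6.37, 6.42 and 6.34 to 7.31, 7.42 and 6.92. COL12A1 gave -1.21 ± 0.26 with its brightest probe set, from responses of -1.68 in 786-O and -0.48 in PC3. The values of 0.43, 0.98 and 1.23 from 3 dimmer probe sets hold only a PC3 fall, since those lay under the floor in 786-O. The direction of the COL12A1 difference thus rests on 1 probe set. MMP1, interstitial collagenase, rose in 786-O by 0.31 ± 0.06 and fell in PC3 with -0.54 ± 0.06.

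Of 15 Notch genes 1 was higher and 2 were lower (20.0% called against 5.97% of all genes). NOTCH3, a receptor, was at 2.45, 2.64 and 2.53 in 786-O alone and at 6.41, 5.52 and 5.52 with myoblasts, at least 3.52-fold higher, and stayed at 2.16 to 2.27 in PC3; a second probe set of NOTCH3, with a mean of 2.0, showed nothing above the floor. JAG1, a ligand, rose in PC3 by 0.34 ± 0.05 and HES1, a target, by 0.57 ± 0.07, and neither was called in 786-O. WNT7A, at the floor in 786-O, rose in PC3 from 5.88, 5.23 and 5.16 to 7.11, 6.74 and 7.39 and was the 1 of 17 Wnt genes called (5.88%).

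Metallothioneins, small proteins that bind zinc and copper, fell in 786-O. Of 7 tested members 6 fell in 786-O and 0 rose, in PC3 1 fell and 0 rose, and all 7 had a difference below 0, with a median of -0.67. The difference was called for MT1F, MT1X and MT1G (42.9% of the 7, against 5.97% of all genes). MT1F was at 12.25, 12.2 and 12.14 in 786-O alone and at 11.33, 11.01 and 11.4 with myoblasts, and at 11.8, 11.63 and 11.84 in PC3 alone and 11.81, 11.68 and 11.82 with myoblasts. The 786-O groups of MT1F were apart and the PC3 groups overlapped, with a difference of -0.96 ± 0.14 (adjusted p = 0.0021). MT1X and MT1G gave -0.74 ± 0.11 and -0.67 ± 0.13. These genes are near-identical copies, so their probe sets can share signal and the members are uncertain as separate results. The number of called metallothioneins ran from 0 to 6 over the alternatives.

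Of 27 genes of the G2 and M phases 3 had a higher response in 786-O and 0 a lower one, or 11.1% called against 5.97% of all genes (median 0.11). At an unadjusted p under 0.05 limma had 9 higher and 0 lower, against 2932 of all 12502 genes in either direction. Of the 27 differences 21 were above 0, where the median over all genes was 0.02. MKI67, the proliferation marker Ki-67, rose in 786-O from 12.44, 12.41 and 12.47 to 12.61, 12.76 and 12.75 and fell in PC3 from 11.76, 11.93 and 12.09 to 11.47, 11.54 and 11.42, and its 4 probe sets gave 0.46 to 0.84. CENPF, a kinetochore protein, rose in 786-O by 0.37 ± 0.09 and had a difference of 0.65 ± 0.13 (adjusted p = 0.0129). NDC80 gave 0.54 ± 0.14 and lost its call under 16 alternatives. Of 24 genes of the G1 and S phases 1 was called (4.17%), MCM4, a helicase subunit whose probe sets disagreed in sign (-1.31 to 0.59).

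The share of called genes was not even over the expression classes. Of 636 genes at the floor in 786-O 89 (14.0%) were called and of 714 at the floor in PC3 51 (7.14%), whereas 6 of the 473 at the floor in both (1.27%) were. These shares are partly fixed by the rule, since the classes were set from the same signals. A gene lifted over the floor by its response, such as CSF3 in PC3, left the class at the floor in both. Such genes could also pass the signal filter through the groups where they were high. With a spread for each line the calls at the floor in 1 line numbered 160 instead of 140. A further limit is that 598 genes had a group mean within 0.25 of the floor on the log2 scale, so their class could change with a small shift. Among genes at the floor in 1 line, CCL20, ARL14, CSF3 and HAO1 had the lowest differences. ARL14, a small GTPase, was at 4.19, 2.67 and 2.55 in PC3 alone and at 8.56, 7.96 and 7.89 with myoblasts, at least 16.8-fold higher (adjusted p = 8.23e-06). HAO1, glycolate oxidase of liver peroxisomes, went in PC3 from 4.05, 4.85 and 5.77 to 8.51, 8.78 and 8.71. The ARL14 and HAO1 signals of 786-O lay between 2.15 and 2.54.

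Of the genes at the floor in 786-O, 37 fell in PC3 without a call in 786-O, and for 21 of them the difference was called. HHIP, CFAP251 and PLPPR5 are those that the naming rule picked. HHIP, an inhibitor of hedgehog signalling, fell from 8.25, 8.13 and 8.37 to 5.56, 5.72 and 5.68. CFAP251, a protein of cilia, fell from 7.82, 7.57 and 7.63 to 4.3, 5.2 and 5.79. PLPPR5, a lipid phosphatase-related protein, fell from 7.98, 7.55 and 7.56 to 5.52, 4.55 and 5.51. The HHIP arrays of 786-O straddled the floor, from 3.11 to 4.32. KRT79, a keratin, was off in PC3 (2.02 to 2.03) and in 786-O went from 3.87, 3.81 and 3.58 to 6.93, 7.05 and 5.64, at least 5.83-fold higher.

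**Figure D4:**
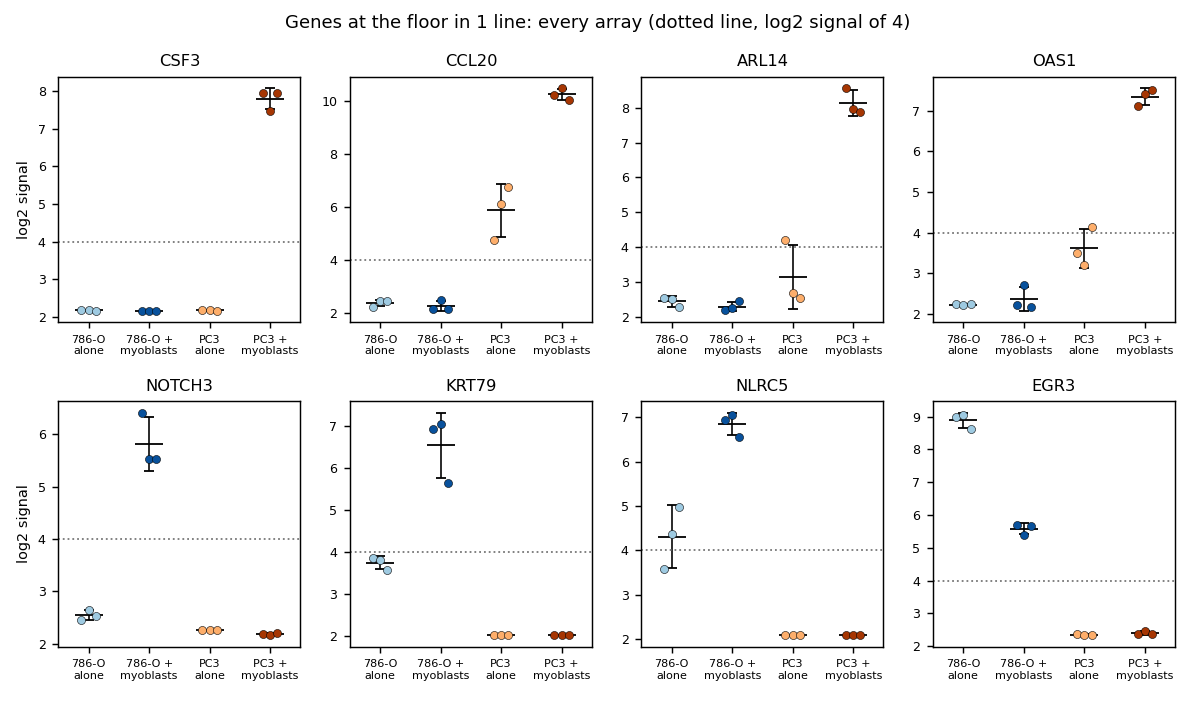
Log2 signal (vertical axis) on every array of 8 genes at the floor in 1 line, by group (horizontal axis). Points are arrays, bars the mean and SD of the 3 arrays of a group, and the dotted line is the floor at a log2 signal of 4. CSF3, CCL20, ARL14 and OAS1 rise only in PC3 with myoblasts, NOTCH3, KRT79 and NLRC5 only in 786-O with myoblasts, and EGR3 falls within 786-O.

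Some genes crossed the floor in a line that otherwise expressed them. ARNT2, a partner of PAS-domain factors, was at 2.17, 2.2 and 2.16 in PC3 alone and at 7.11, 7.48 and 7.42 with myoblasts, at least 10.1-fold higher (adjusted p = 2.17e-06), and lay around the floor in 786-O (3.57 to 5.15). WIPF1, which binds the WASP actin regulators, was at 2.9, 3.62 and 3.39 in PC3 alone and at 6.74, 6.56 and 6.33 with myoblasts, at least 5.83-fold higher, while 786-O stayed at 11.52 to 11.75; its other probe sets gave -0.16 to 0.08, and their group means ran from 2.08 to 2.47 in PC3 and up to 6.22 in 786-O. PRICKLE2, of planar cell polarity, was at 3.79 on each array of PC3 alone and at 6.26, 5.74 and 5.77 with myoblasts, at least 3.8-fold higher. In the opposite direction NEFM, a neurofilament subunit, fell in PC3 from 6.1, 6.67 and 5.46 to 3.07, 3.72 and 2.98, at least 4.22-fold lower, while 786-O stayed at 14.73 to 14.81. ZNF521, a zinc finger factor, went in PC3 from 4.24, 4.54 and 4.54 to 2.11, 2.65 and 3.35, at least 1.36-fold lower, LOC283901 had a difference of 1.6 ± 0.26, and HOXA-AS2, with 0.94 ± 0.24, lost its call under 19 alternatives. Of the 173 genes of this class 19 (11.0%) were called.

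Of 136 genes measured throughout and called in both lines, 110 moved in the same direction, and for 94 of these the difference was not called. The largest were LOC285628, CXCL1, BCL3, NR3C2, MAP3K7CL and ASIC1. BCL3, a nuclear partner of NF-kappaB p50, rose in 786-O from 5.49, 5.53 and 5.74 to 7.06, 7.8 and 6.4 and in PC3 from 7.26, 7.24 and 7.56 to 8.87, 8.92 and 8.99, a difference of -0.07 with a 95% interval of -0.91 to 0.76. NR3C2, the mineralocorticoid receptor, fell in 786-O from 6.34, 5.47 and 5.56 to 4.7, 4.94 and 4.98 and in PC3 from 9.34, 8.94 and 9.46 to 7.64, 7.14 and 7.59, and its interval ran from 0.13 to 1.61 (adjusted p = 0.147). ASIC1, an acid-sensing ion channel, rose in both lines, with an interval of -0.34 to 0.76, LOC285628 had one of -1.43 to 0.53, and MAP3K7CL one of -0.23 to 1.27. Intervals this wide do not show that the responses were equal, and MAP3K7CL was called (0.88, adjusted p = 0.0129) without replicate 2 of 786-O with myoblasts.

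The 16 genes that moved the same way in both lines with unequal size were looked up after their values were seen. COXFA4L3, CXCL3, CXCL2, ACKR3, NFKBIZ, SCG5, CLDN1 and IER3 rose more in PC3, RIPK4, DDIT4 and NEDD9 rose more in 786-O, and GPR176, NEXN, FGF5, CPED1 and EGR1 fell more in PC3. ACKR3, a scavenging receptor for the chemokine CXCL12, rose in PC3 from 7.95, 8.05 and 7.94 to 10.0, 10.16 and 10.2 and in 786-O from 10.06, 10.02 and 10.06 to 10.86, 10.77 and 11.09. NFKBIZ, a nuclear co-factor of NF-kappaB needed for IL6 induction in mouse macrophages, rose by 1.51 ± 0.11 in PC3 and 0.48 ± 0.11 in 786-O. NEDD9, a focal adhesion scaffold, rose by 1.58 ± 0.15 in 786-O and 0.65 ± 0.15 in PC3.

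**Figure D5:**
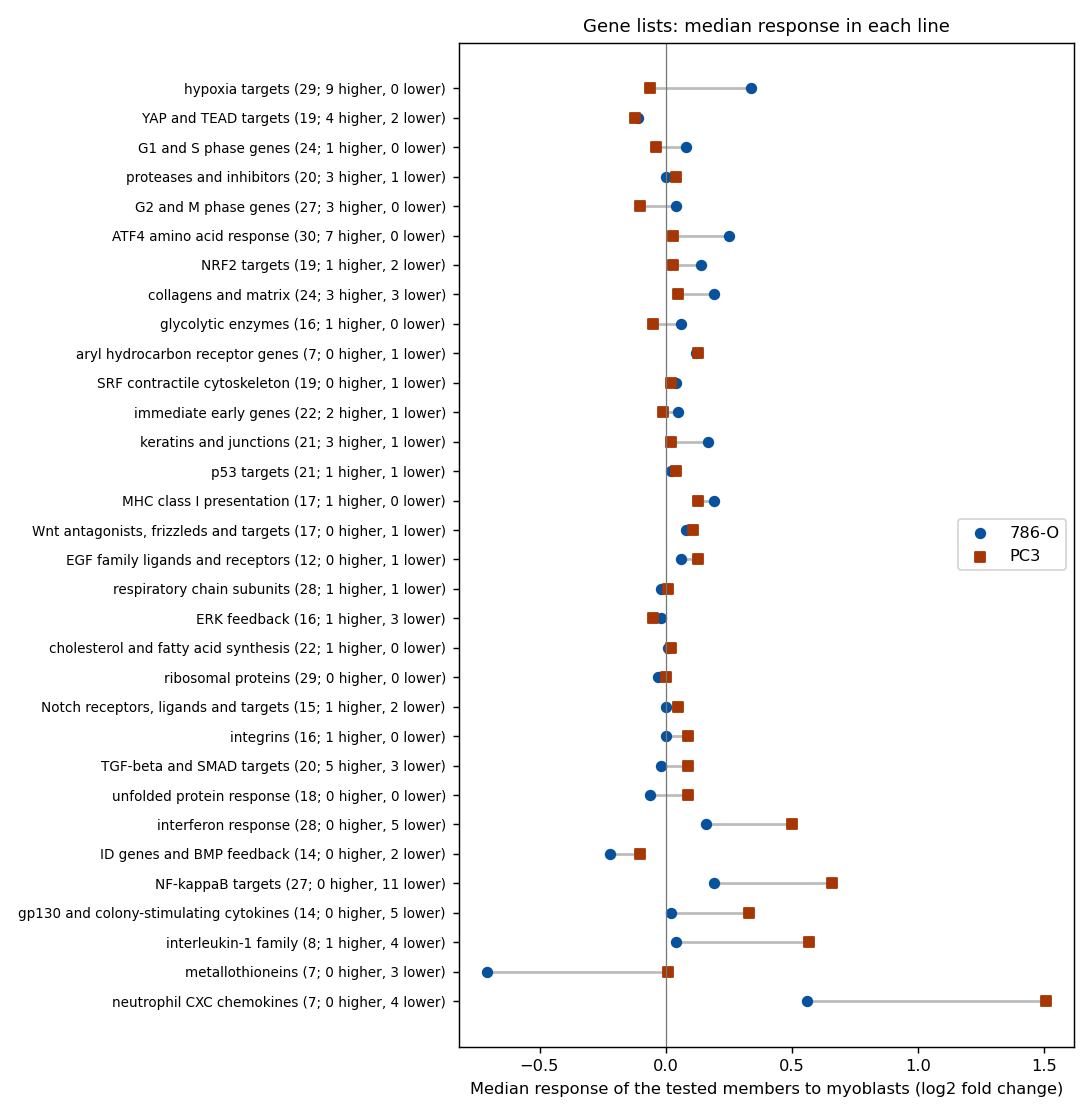
Median response to myoblasts (horizontal axis, log2 fold change) of the tested members of 32 gene lists (vertical axis) in 786-O (blue circles) and PC3 (red squares); the labels give the members tested and how many had a higher or lower response in 786-O. The points lie farthest apart for the neutrophil chemokines, followed by the metallothioneins, the interleukin-1 family and the NF-kappaB targets, and lie together for the ribosomal proteins. The medians include members at the floor in 1 line.

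Among the remaining lists the share called ran from 0.0% to 20.0%, against 5.97% of all genes. Of 29 ribosomal proteins 0 were called by limma (median -0.04), with 0 higher and 2 lower at an unadjusted p under 0.05. That threshold was passed by 2932 of all 12502 genes, in either direction. Among the lists called in 1 direction by limma, the members past an unadjusted p of 0.05 in the other direction numbered 2 of the NF-kappaB targets, 1 of the neutrophil chemokines, 1 of MHC class I presentation, 2 of the hypoxia targets and 1 of the amino acid response. There were 0 of the metallothioneins, the interferon genes, the gp130-type cytokines, the ID and BMP feedback genes and the G2 and M phase genes. Further lists had 1 called member, and there the contrary members numbered 6 integrins, 4 Wnt genes, 4 of the EGF family and 3 contractile genes. They numbered 1 each for the glycolytic enzymes, cholesterol and fatty acid synthesis and the aryl hydrocarbon receptor genes, and 0 for the G1 and S phase genes. Further, of 28 respiratory chain subunits 1 was higher and 1 lower, and of 22 genes of cholesterol and fatty acid synthesis 1 was higher, INSIG1, the sterol-sensitive retention factor (0.47 ± 0.12). Of 21 p53 targets 1 was higher and 1 lower, of 16 integrins 1 was higher, and of 19 contractile genes of serum response factor 1 was lower. Of 20 proteases and inhibitors 3 were higher and 1 lower (20.0% called), and of 21 keratin and junction genes 3 and 1 (19.0%). Of 14 ID and BMP feedback genes 2 were lower (14.3%), and 5 of them fell in 786-O. Of 19 NRF2 targets 1 was higher and 2 were lower (15.8%), among them AKR1C1, at 6.16, 6.15 and 6.16 in PC3 alone and 7.7, 7.74 and 7.54 with myoblasts, whose near-identical relatives make its identity uncertain and whose call was lost with the mean of probe sets. Of 7 aryl hydrocarbon receptor genes the receptor AHR itself was called, -0.64 ± 0.12 (adjusted p = 0.0123).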

How the data were processed

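Human HG-U133 Plus 2 arrays, 12 in all, were analysed, 3 in each of 4 groups taken from the sample labels. For every probe set on every array the authors deposited a linear intensity. MAS5 is the tool named, per the submitters' processing notes, which give no version, and its settings are not given in the sources used here. No value lay under 3.314 and the distributions of the arrays were nearly equal, and whether a further step followed MAS5 is not given either, so what the lowest signals stand for is not known. The tables deposited, the full matrix and the series matrix, were identical for 54675 of 54675 probe sets. Intensities ran from 3.314 to 73706.3, and 57.5% of all values lay under a signal of 16, the floor. No depth exists for arrays, and their number limits the precision.

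The deposited intensities were log2-transformed without an added constant. Control probe sets (62), probe sets without a symbol (13166) and those with several symbols (1522) were left out. Symbols were updated through the identifiers of the array's annotation, of which 96.5% were found in the RefSeq gene table. Probe sets with a mean log2 signal above the median of 2.65 were kept, and the brightest probe set stood for each gene. The fit used limma 3.58.1 under R 4.3.3 on all 4 groups, with eBayes and an intensity trend. Tests were two-sided. Adjustment was by Benjamini-Hochberg across all 12502 genes, and a call needed an adjusted p under 0.05. Errors are standard errors of that fit. A fold against a group whose mean lay under the floor was taken against the floor, per array the higher of the floor and the signal, and written as a lower bound.

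The members and the gene lists, 35 in number, were chosen with earlier results of these data known. The genes named are, among called genes, the 12 highest and 12 lowest differences measured throughout, the 4 highest and 4 lowest with a group under the floor and likewise at the floor in 1 line, ordered after raising signals below the floor to the floor, the 8 largest with opposite calls, the 6 largest shared responses without a called difference, and from each list at most 4 members, those of smallest p. Genes named outside the rule, such as further members of a list, were chosen after their values were seen. Some genes that the rule or the lists hold are not reported here. Replicate numbers were not taken to pair the arrays, since deviations of same-numbered arrays from their group means correlated between -0.134 and 0.113. Promoter sequences are RefSeq's (GRCh38.p14), with 27305 windows searched. The alternatives were quantile normalization, median centring, an added constant, other filters and probe set choices, other variance models and weights, a replicate block, stricter thresholds and leaving out each array. Simulated data were used to test the code. Plots were made in Python 3.11.15 with matplotlib 3.10.9.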

Additional observations from a re-analysis of the deposited data

Results flagged for a closer look

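The responses of the lines to myoblasts differed by the test of the difference itself for 746 genes. The genes below, log2 differences of 786-O minus PC3, passed that test, and no explanation was weighed for any of them.

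Lower in 786-O and measured throughout were PLA2G4A (-3.12), MAP7 (-2.48), MOB3B (-2.23), IL6 (-2.1), TENT5C (-2.04), PID1 (-2.01), DNER (-1.92), IFI44L (-1.91), ZEB2 (-1.91), HS6ST2 (-1.75), KYNU (-1.59) and SCARA5 (-1.58). Higher in 786-O and measured throughout were LINC00937 (2.56), MAP7D3 (2.23), DENND3 (2.09), LINC00261 (2.07), BMS1P2 (1.86), PRKG1 (1.81), CTHRC1 (1.72), STRIP2 (1.72), AK5 (1.72), LOC727820 (1.71), GAA (1.7) and FAT4 (1.65). LOC283278 (-1.41) and THBS1 (-1.37), like PID1, DNER, DENND3, LINC00261 and AK5, were called in both lines with opposite sign.

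With a group under the floor in a line that expressed the gene, ARNT2 (-4.73), WIPF1 (-3.19), PRICKLE2 (-2.04) and CSF2 (-1.79) were lower and NEFM (2.84), ZNF521 (2.21), LOC283901 (1.6) and HOXA-AS2 (0.94) higher. At the floor in 1 line, CSF3 (-5.63), ARL14 (-5.15), CCL20 (-4.49), HAO1 (-3.79) and CSGALNACT1 (-3.12) were lower and KRT79 (2.79), CFAP251 (2.57), HHIP (2.53) and PLPPR5 (2.5) higher. Signals under the floor have no order, so these last 2 groups of values depend on where the floor lies. With signals under it set to it, ARNT2 gave -2.79 and CSF3 -3.8.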

How the results depend on the processing

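The difference of responses was called for 746 genes, against 1888 with the ACTB ratio in the fit and 813 with a spread for each line, both alternatives chosen after seeing the data, 478 with a filter at the 75th percentile, 230 at an adjusted p under 0.01 and 251 with a 2-fold size required. The genes with a higher response in 786-O numbered 909, and those with a lower one 979, with the ACTB ratio, 121 and 109 at the stricter p, and 122 and 129 at 2-fold, and 193 were lower with the stricter filter. Among genes measured throughout, 1641 were called with the ACTB ratio, 154 at the stricter p and 110 at 2-fold. At the floor in 1 line 65 were called at the stricter p and 0 both with the stricter filter and with genes expressed in both lines only, since neither tests such genes. The ACTB ratio follows mostly replicate 2 of 786-O with myoblasts. Opposite calls numbered 27, and 91 with the ACTB ratio, 3 with a spread for each line, 16 with weights by group and 17 without s and x probe sets. The 786-O response, 1498 genes, gave 175 with a spread for each line, 963 with no filter and 595 with weights by group, and the PC3 response, 713 genes, gave 1385 with the ACTB ratio, 419 with the stricter filter and 1170 with weights by group.

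Leaving out single arrays moved the called genes from 395 to 1314, higher ones from 213 to 728, lower ones from 170 to 603, those measured throughout from 278 to 1081, those at the floor in 1 line from 92 to 189, opposite calls from 11 to 75, the 786-O response from 536 to 2522 and the PC3 response from 434 to 1314. The count of 395 came without replicate 3 of 786-O alone, when 380 of the 746 were called again, and 1314 without replicate 2 of 786-O with myoblasts, when 737 were; 1138 came without replicate 3 of that group. With the replicate number as a block 520 genes were called, 510 of them among the 746 in the same direction. The numbers did not pair the samples.

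Of 113 called genes that the rule named, 73 stayed called under every alternative that tested them. Over all named genes and alternatives, 318 of 4693 pairs lost a call, 93 gained it and 4 reversed, all with the mean of probe sets: EGR1 (-0.13), PHLDA1 (-0.01), MCM4 (-0.11) and COL12A1 (0.36). The cause was not tested beyond the disagreement of probe sets given above. Values from the second deposited table were identical. Limits are the 3 arrays per group, 1 line per cancer, the wider spread of co-cultured 786-O and the floor, under which no response is measured.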
